A study of Rattus norvegicus with 10 samples.

Results

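The genes described here code for ligands of the epidermal growth factor (EGF) family and for their Erbb receptors, measured in mammary glands that were taken from female Sprague-Dawley rats on postnatal day 50. They were 9 genes of the 10411 named on the array, chosen by symbol: the ligands Areg, Egf, Tgfa, Btc, Hbegf and Nrg1 and the receptors Egfr, Erbb2 and Erbb3. All 9 were on the array, with 17 probe sets, of which 8 belonged to Nrg1. Values are MAS5 signals, a summary of the probes of a probe set on a linear scale, from Affymetrix RAE230 arrays.

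The rats had been fed purified diets named SPI (4 arrays, replicates 2, 3, 4 and 5), GEN (3 arrays, replicates 1, 3 and 5) and CAS (3 arrays, replicates 1, 2 and 3). GEN is genistein, an isoflavone of soy and a ligand of estrogen receptors, while SPI and CAS are not spelled out in the labels and stand, from knowledge of the study, for soy protein isolate and casein. CAS serves as the comparison diet. Each array carried the RNA of the fourth mammary glands of 2 pooled animals, and the labels do not say which arrays may share a pool, so p-values measure the spread between arrays and may in part be technical. The source is labelled as epithelial cells and the design text also names colon. The luminal keratin genes Krt8 (1409 to 5260 over the 10 arrays) and Krt18 (1508 to 3950) were bright. The basal keratin genes Krt5 and Krt14 ran from 443 to 1780 and from 277 to 1631. Probe sets of adipocyte, fibroblast, macrophage and endothelial genes passed the filter as well. These signals were not used to tell mammary gland from colon. The samples are described as whole mammary gland because the fourth mammary glands are named as the source of the RNA.

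EGF family ligands are made as membrane-anchored precursors that metalloproteases release. Amphiregulin (Areg), EGF, TGF-alpha (Tgfa), betacellulin (Btc) and heparin-binding EGF (Hbegf) bind Egfr, and neuregulin 1 (Nrg1) binds Erbb3 and Erbb4. Erbb2 has no known ligand of its own and acts as a dimer partner, while Erbb3 has little kinase activity and depends on its partner. In the mouse mammary gland, amphiregulin is produced by luminal cells downstream of estrogen receptor alpha and is required for ducts to grow out at puberty.

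Areg is the ligand whose signal differed with the smallest unadjusted p of all tested members, and its upstream sequence is shown as context for that gene. RefSeq's promoter table holds 7 of the 9 genes (Nrg1 and Erbb3 have no entry used here). The 250 bases before the annotated start of Areg lie at chr14:17265642-17265891 on the minus strand of GRCr8, and capitals mark the cyclic AMP response element TGACGTCA (91 to 84 bases before the start) and the TATA motif TATAAA (61 to 56 bases before it).
Areg: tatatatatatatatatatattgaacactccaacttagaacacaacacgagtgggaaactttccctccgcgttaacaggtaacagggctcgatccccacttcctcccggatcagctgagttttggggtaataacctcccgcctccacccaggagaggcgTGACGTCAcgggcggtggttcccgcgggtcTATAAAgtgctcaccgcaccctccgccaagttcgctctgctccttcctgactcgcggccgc
Searched on both strands, TGACGTCA occurred in 1 of the 7 member promoters, that of Areg, and in 1.59% of all 33469 promoters over the same 250 bases. TATAAA was also found only in Areg among the 7, against 12.9% of all promoters. The GC box GGGCGG was found in 5 of the 7 (Areg, Tgfa, Btc, Egfr and Erbb2), against 30.5% of all promoters, and in Areg it lay between the other motifs without overlapping them. The palindromic estrogen response element (GGTCA and TGACC with 3 bases between them) and the AP-1 motif TGACTCA occurred in 0 of the 7, against 0.0239% and 4.05% of all promoters. These matches describe letters in this window and were not set against the signals.

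Of the 17 probe sets, 5 passed the filter on dim probe sets, which left out those with a geometric mean signal under 162: Areg, Btc, Hbegf, Erbb3 and the brighter of the 2 Egfr probe sets. The other 12 were left out of the test and are given as signals further on. Egf, Tgfa, Erbb2 and Nrg1 had no probe set that was tested.

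Areg stood higher on SPI than on GEN, with CAS between them. Its signal was 956, 540, 674 and 698 on the SPI arrays (replicates 2 to 5), 357, 618 and 469 on the GEN arrays, and 598, 543 and 566 on the CAS arrays. The 3 CAS arrays lay close together, SPI 2 was the highest of all arrays and GEN 1 the lowest, and the SPI and GEN ranges overlapped through SPI 3 and GEN 3. The log2 difference between SPI and GEN was 0.58 ± 0.21 (SE), with a 95% interval of 0.12 to 1.04, which corresponds to 1.5-fold (1.09 to 2.05). The unadjusted p in limma was 0.0165, rank 275 among the 9520 probe sets tested, and the adjusted p was 0.563, so the difference did not pass. Against CAS, SPI differed by 0.30 ± 0.21 (95% interval -0.15 to 0.76) and GEN by -0.28 ± 0.23 (-0.76 to 0.21), neither past the adjusted threshold in limma (0.987 and 0.856). Without SPI 2 the SPI to CAS difference was 0.16, without GEN 1 the SPI to GEN difference was 0.38 and the GEN to CAS difference -0.078, and without GEN 3 the GEN to CAS difference was -0.47. Between SPI and GEN the unadjusted p in limma ran from 0.0039 (without GEN 3) to 0.104 (without GEN 1). With the replicate number as a block it was 0.131.

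**Figure D1:**
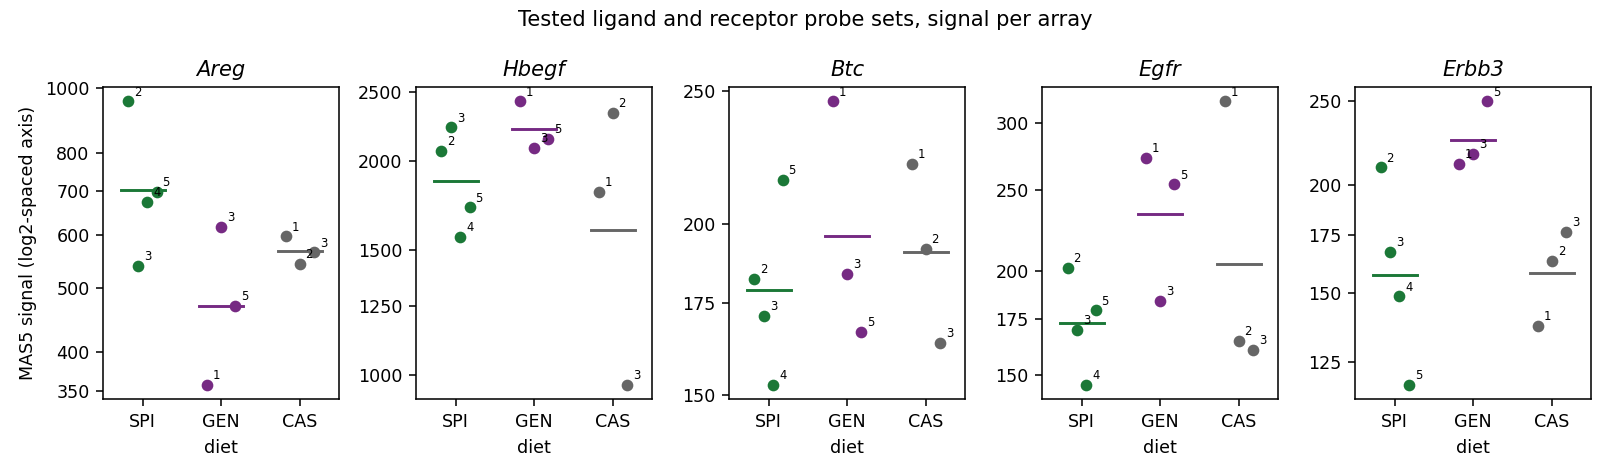
MAS5 signal (log2-spaced axis, with a separate range in each panel) of the 5 tested probe sets on each array, by diet. Points are arrays labelled with their replicate number, and bars are geometric means of a diet. For Erbb3 all 3 GEN arrays (212 to 250) lie above all SPI and CAS arrays, whose highest values are 209 and 176.

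Hbegf, a ligand that binds heparan sulfate and is known as an early response gene in many cells, had signals of 2062, 2226, 1561 and 1719 on SPI, of 2422, 2083 and 2148 on GEN and of 1805, 2334 and 967 on CAS. The GEN arrays lay close together and CAS 3 was the lowest of all 10 arrays. The log2 difference of GEN against CAS was 0.47 ± 0.26 (95% interval -0.09 to 1.03) and that of SPI against CAS 0.23 ± 0.24 (-0.29 to 0.75), with adjusted p of 0.825 and 0.987 in limma. Both values rested on single CAS arrays: without CAS 3 they were 0.11 and -0.13, and without CAS 2 they were 0.74 and 0.50. SPI against GEN differed by -0.24 ± 0.24 (adjusted p = 0.803).

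Btc, which can activate Egfr and Erbb4, had the lowest array-to-array spread among the 5 tested probe sets. Its signal was 182, 171, 152 and 215 on SPI, 246, 184 and 167 on GEN and 221, 192 and 164 on CAS, and the 3 ranges overlapped throughout. The log2 difference was -0.093 ± 0.21 between SPI and CAS, 0.039 ± 0.23 between GEN and CAS and -0.13 ± 0.21 between SPI and GEN. Their 95% intervals reached from -0.56 to 0.37, from -0.46 to 0.53 and from -0.59 to 0.33. The sign of each difference turned when 1 array was left out: 0.014 between SPI and CAS without CAS 1, -0.12 and -0.071 between GEN and CAS without GEN 1 and without CAS 3, and 0.031 between SPI and GEN without GEN 1.

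Among the receptors, Erbb3 was higher on every GEN array than on any array of the other diets. It had signals of 209, 167, 149 and 117 on SPI, of 212, 217 and 250 on GEN and of 138, 163 and 176 on CAS. Diets without overlap, in either direction, were seen in 11.1% of all tested probe sets for GEN and CAS and in 8.5% for SPI and GEN. SPI 2 lay just below the lowest GEN array, and 2 SPI arrays and 1 CAS array were below 162. The geometric mean was 157 on SPI, 225 on GEN and 158 on CAS, so Erbb3 passed the filter of 162 only through GEN, the diet on which it was high, and its differences from GEN are given as values that lend no support to a diet effect. The log2 difference of GEN against CAS was 0.51 ± 0.24 (SE), with a 95% interval of -0.012 to 1.03 or 1.42-fold (0.99 to 2.05), and the unadjusted p in limma was 0.0546 (adjusted p = 0.825). SPI against GEN differed by -0.52 ± 0.23 (interval -1.01 to -0.03), with an unadjusted p of 0.0389 and an adjusted p of 0.603 in limma. SPI and CAS differed by -0.0087 ± 0.23, and the sign of that value turned under 8 of 16 alternatives.

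The luminal list was, like Erbb3, highest on GEN. The mean log2 signal of 14 luminal epithelial genes was 10.54, 10.23, 9.51 and 10.17 on SPI, 10.62, 10.65 and 11.03 on GEN and 10.73, 10.13 and 10.44 on CAS. Between SPI and GEN, 13 of the 14 genes were lower on SPI with a median log2 difference of -0.69, and 8 of the 14 were at an unadjusted p under 0.05 (7.95% of all probe sets) and 0 at an adjusted p under 0.05. The list was chosen with earlier results of these data known. Its genes were measured in the same RNA and are not 14 separate observations, so these counts are a description. The array with the highest list mean, GEN 5, also had the highest Erbb3 signal, while CAS 1 had the second highest mean and the second lowest Erbb3 signal. With the list mean as a covariate in limma, the Erbb3 difference between SPI and GEN was -0.37 (unadjusted p = 0.263) and that between GEN and CAS 0.43 (unadjusted p = 0.130). For Areg, which lay on the opposite side to the luminal list between SPI and GEN, the same covariate gave a difference of 0.76 (unadjusted p = 0.0204). The list means of SPI and GEN did not overlap, so between them the covariate and the diet cannot be told apart. These values therefore assign no part of a difference to either. In whole tissue, fewer cells of a type and less RNA per cell cannot be told apart.

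**Figure D2:**
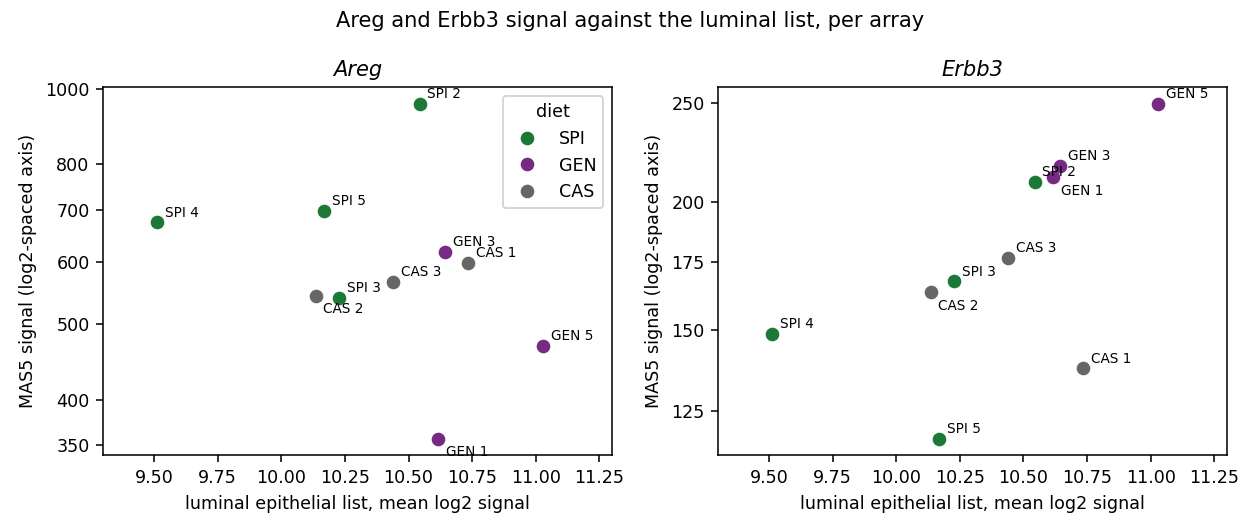
MAS5 signal of Areg and Erbb3 (log2-spaced vertical axis) against the mean log2 signal of 14 luminal epithelial genes (horizontal axis), 1 point per array, coloured by diet. The 3 GEN arrays have list means of 10.62 to 11.03, above the 4 SPI arrays at 9.51 to 10.54; Erbb3 is highest and Areg low to intermediate on those GEN arrays.

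Erbb3 is also a receptor of Schwann cells, the glia of peripheral nerve, where it receives neuregulin signals. The mean log2 signal of 7 Schwann cell genes was 8.67, 8.96, 8.79 and 8.79 on SPI, 8.98, 8.79 and 8.93 on GEN and 8.53, 8.56 and 8.41 on CAS. The SPI and GEN arrays both lay above all CAS arrays on this list. The part of the Schwann cell list in the Erbb3 values was not tested, and the luminal list was used only as the covariate above.

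Egfr, the receptor shared by the EGF-type ligands, had signals of 201, 170, 146 and 179 on SPI, of 273, 184 and 254 on GEN and of 319, 165 and 161 on CAS. CAS 1 was the highest of all arrays and stood well apart from the other CAS arrays, whose values lay in the SPI range. The log2 difference was -0.24 ± 0.26 between SPI and CAS, 0.20 ± 0.28 between GEN and CAS and -0.43 ± 0.26 between SPI and GEN, with adjusted p of 0.987, 0.912 and 0.676 in limma. Without CAS 1 it was 0.088 between SPI and CAS and 0.52 between GEN and CAS, and without CAS 3 it was -0.41 and 0.027. CAS 1 also had the highest mean of 12 fibroblast genes (12.26, against 10.74 to 11.80 on SPI, 11.25 to 11.61 on GEN and 11.52 and 11.75 on the other CAS arrays) and of 5 skeletal muscle genes (9.95, against 7.39 to 8.27 on the other 9 arrays). Their part in the Egfr value of CAS 1 was not tested. With the luminal list mean as a covariate, the Egfr difference was 0.00039 between SPI and GEN and -0.021 between GEN and CAS. Between SPI and GEN this covariate cannot be told apart from diet. The second Egfr probe set was dim, at 9.9 to 50.2 over the 10 arrays.

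**Figure D3:**
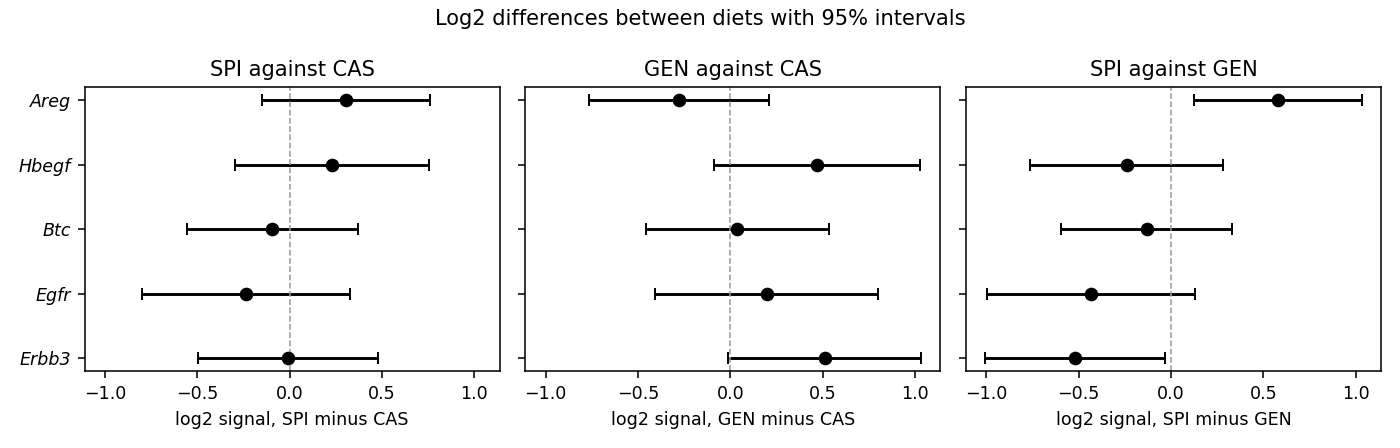
Log2 differences in signal between diets for the 5 tested probe sets, with 95% intervals from limma over 10 arrays, in 3 panels (SPI minus CAS, GEN minus CAS, SPI minus GEN). The interval leaves out 0 for Areg (0.12 to 1.04) and Erbb3 (-1.01 to -0.03) between SPI and GEN, before adjustment; Erbb3 passed the filter only through GEN.

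Over the 5 tested probe sets, 0 reached an adjusted p under 0.05 in any comparison, and the same held for all 9520 probe sets (0% called in each comparison, with smallest adjusted p of 0.170, 0.0642 and 0.132 in limma). At an unadjusted p under 0.05, the members counted 0 of 5 for SPI against CAS, where 4.82% of all probe sets were called. They counted 0 of 5 for GEN against CAS, where 5.89% were called, and 2 of 5 (Areg and Erbb3) for SPI against GEN, where 7.95% were called. Erbb3 was among the 5 only through its GEN arrays, so this count is a description. Diets did not overlap for 0 of 5 members between SPI and CAS (4.6% of all probe sets), for 1 of 5 between GEN and CAS (11.1%) and for 1 of 5 between SPI and GEN (8.5%). That member was Erbb3 in both cases, which passed the filter only through GEN, so nothing is read from these counts. The median log2 difference of the 5 was -0.0087 between SPI and CAS, 0.20 between GEN and CAS and -0.24 between SPI and GEN, beside -0.012, -0.013 and -0.0043 over all probe sets. The 3 comparisons share arrays in pairs, so they are not independent of each other.

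The 12 probe sets below the filter gave signals that were mostly under 100. Egf, whose product gave the family its name, had 84.5, 80.5, 59.5 and 54.4 on SPI, 84.4, 41.8 and 24.9 on GEN and 74.3, 73.3 and 77.7 on CAS. Tgfa, a ligand of Egfr made by many epithelia, ran from 20.8 to 110 over the 10 arrays. Erbb2 had signals of 152, 150, 37.5 and 61.5 on SPI, of 89.5, 97.5 and 43.8 on GEN and of 148, 91.2 and 204 on CAS. SPI 2 and SPI 3 lay well above SPI 4 and SPI 5, and the diets overlapped widely.

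Nrg1, which is transcribed in many isoforms, was represented by 8 probe sets whose signals ran from 5.0 to 451. On RAE230 arrays the ending _a_at marks probe sets that can detect several transcripts of 1 gene. The brightest, 1369783_a_at, had 111, 134, 133 and 102 on SPI, 292, 136 and 184 on GEN and 215, 113 and 109 on CAS, and all GEN arrays lay just above all SPI arrays. Probe set 1371211_a_at had 5.0, 8.9, 25.8 and 40.8 on SPI, 88.9, 80.5 and 81.3 on GEN and 47.3, 6.9 and 10 on CAS. Here the 3 GEN arrays were close to each other and above every array of the other diets, at signals far below the filter. In the fit over all 15866 probe sets without the filter, this probe set differed by 2.49 ± 0.84 for GEN against CAS and by -2.50 ± 0.79 for SPI against GEN, with adjusted p of 0.878 and 0.609 in limma. Probe set 1388245_a_at had 45.4, 81.0, 78.5 and 30.6 on SPI, 64.2, 91.7 and 32 on GEN and 32, 17 and 22.6 on CAS.

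The remaining Nrg1 probe sets did not separate the diets. In 1370607_a_at, for example, GEN 1 reached 451 and CAS 3 stood at 12.2, and the ranges of all 3 diets overlapped. Over the 12 dim probe sets in the fit without the filter, 1 had an unadjusted p under 0.05 between SPI and CAS (4.89% of all probe sets), 2 between GEN and CAS (5.57%) and 1 between SPI and GEN (7.65%), all in Nrg1, and 0 passed an adjusted p of 0.05. Of the same 12, the diets did not overlap for 0 between SPI and CAS (5.05% of all probe sets), for 1 between GEN and CAS (10.8%) and for 2 between SPI and GEN (8.31%). The 8 probe sets share 1 gene and the same RNA, so they are not separate observations of a diet effect.

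**Figure D4:**
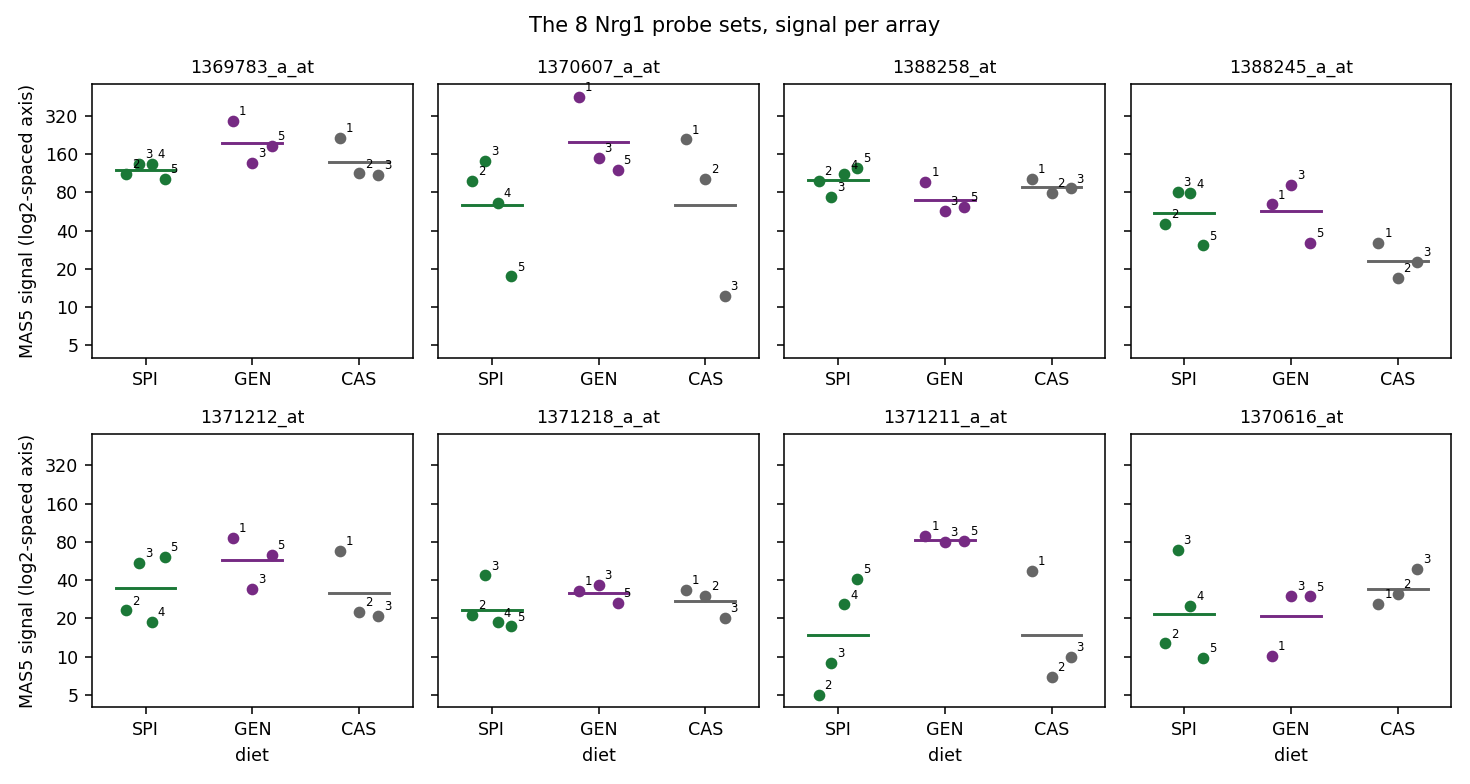
MAS5 signal (log2-spaced axis, shared by all panels) of the 8 Nrg1 probe sets on each array, by diet. Points are arrays labelled with their replicate number and bars are geometric means. In 1371211_a_at the GEN arrays lie at 80.5 to 88.9, above the SPI (5.0 to 40.8) and CAS (6.9 to 47.3) arrays. In 1369783_a_at they lie just above the SPI arrays but overlap with CAS. The diets overlap or touch in the other probe sets of the gene.

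The rest of the family was thinly represented. Of Ereg, Epgn, Nrg2, Nrg3, Nrg4 and Erbb4, 3 were on the array under these symbols and 1 was tested. Ereg (epiregulin, a ligand of Egfr and Erbb4), named here after its values were seen, had 154, 203, 146 and 166 on SPI, 152, 263 and 154 on GEN and 220, 211 and 226 on CAS. All SPI arrays lay below all CAS arrays, with a log2 difference of -0.40 ± 0.23 and an adjusted p of 0.987 in limma. Erbb4, the second receptor of Nrg1, ran from 8.5 to 52.9 and was not tested.

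Other genes of the pathway were taken from lists of ligand-releasing proteases, adaptors and kinases, inhibitors, and target genes. Together with Ereg, 54 of them were tested, and 0 passed an adjusted p of 0.05 in any comparison. At an unadjusted p under 0.05, 0 were higher and 2 lower on SPI than on CAS (3.7% of the 54, against 4.82% of all probe sets). On GEN against CAS, 0 were higher and 2 lower (3.7%, against 5.89%), and on SPI against GEN 3 were higher and 3 lower (11.1%, against 7.95%). The median log2 difference of the 54 was -0.050, -0.084 and 0.047 in the same order of comparisons. The diets did not overlap for 4 of the 54 between SPI and CAS (4.6% of all probe sets), for 6 between GEN and CAS (11.1%) and for 2 between SPI and GEN (8.5%). Adam10 and Pik3r1, counted as lower on SPI than on GEN, were tested in part through their high GEN arrays. Nothing is read from the counts between these diets. The pathway genes named below, except Adam17, were picked by an unadjusted p under 0.05 on these same arrays. A lack of overlap in them therefore lends no support to a diet effect.

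Among the 7 tested proteases and cofactors of ligand release, Adam10, which cleaves several ligand precursors including those of EGF and betacellulin, had signals of 107, 170, 96.5 and 174 on SPI and of 215, 272 and 299 on GEN. All SPI arrays were below all GEN arrays, with a log2 difference of -0.97 ± 0.33 (adjusted p = 0.558 in limma). Adam17, the main protease for amphiregulin and Hbegf and named for that role rather than for its values, averaged 1497 ± 66.4 on SPI (SD, n = 4), with 1509 ± 84.8 for GEN (SD, n = 3) and 1534 ± 213 for CAS (SD, n = 3).

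Of the 17 tested adaptors and signal transducers, Grb2, the adaptor that links the receptors to Ras, had signals of 1574, 1194 and 1202 on GEN against 1592, 1816 and 1766 on CAS. Every GEN array was below every CAS array, with a log2 difference of -0.39 ± 0.15 (adjusted p = 0.825 in limma). Grb2 had 1925, 1548, 1692 and 1516 on SPI, and the difference of SPI against GEN was 0.34 ± 0.14 (adjusted p = 0.590). Pik3r1, the regulatory subunit of phosphoinositide 3-kinase, had 295, 142, 36.6 and 128 on SPI against 208, 492 and 421 on GEN. The log2 difference was -1.57 ± 0.57 (adjusted p = 0.563 in limma). It was -1.0 without SPI 4, the array at 36.6, and -0.27 with the luminal list mean as a covariate. Between SPI and GEN this covariate cannot be told apart from diet. SPI 4 had the highest ratio of 3′ to 5′ beta-actin signal, which increases as RNA is degraded (7.77, against 2.83 to 5.22 on the other 9 arrays). SPI 4 was the lowest array for Btc, the brighter Egfr probe set, Erbb2, Ereg, Adam10, Pik3r1 and the luminal list. The same held for Eps15 and Ier3 described below. It did not hold for Areg, Hbegf or Erbb3, whose lowest arrays were GEN 1, CAS 3 and SPI 5. For the dim Egfr probe set and the mean of the endothelial genes, SPI 4 was the highest array. With that ratio as a covariate the difference of SPI against GEN was -1.14 for Pik3r1 and -0.75 for Adam10. The same covariate gave a difference larger in size for Areg (0.65), Erbb3 (-0.55) and Dusp1 (0.56). It gave a smaller one for the other tested members and for Grb2, Ccnd1 and Ier3. The part of RNA quality in these values was not tested.

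Of the 15 tested inhibitors and genes of receptor turnover, 2 were at an unadjusted p under 0.05, both lower on SPI than on CAS (13.3%, against 4.82% of all probe sets). The share was 0% in each of the other sublists and 3.7% over all 54 tested pathway genes. It rests on 2 genes of 1 sublist, so nothing is read from it. Lrig1, a membrane protein that promotes the breakdown of Erbb receptors, had 633, 785, 779 and 558 on SPI against 881, 1102 and 1005 on CAS. Eps15, a protein of receptor endocytosis, had 1488, 1094, 995 and 1083 on SPI against 1657, 1493 and 1753 on CAS. In both genes all SPI arrays were below all CAS arrays, although SPI 2 and CAS 2 nearly touched for Eps15. Diets without overlap were seen in 4.6% of all probe sets for SPI and CAS. The unadjusted p of Lrig1 in limma was 0.0241, and 0.0824 without CAS 2. The log2 differences were -0.54 ± 0.21 for Lrig1 (adjusted p = 0.987 in limma) and -0.50 ± 0.16 for Eps15 (adjusted p = 0.889).

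Of the 14 tested target genes, Dusp1, a phosphatase that inactivates MAP kinases, had signals of 5917, 7341 and 7110 on GEN against 9850, 10580 and 8389 on CAS. All GEN arrays were below all CAS arrays, with a log2 difference of -0.50 ± 0.17 (adjusted p = 0.825 in limma). On SPI it had 10184, 7097, 8802 and 11269, and the difference of SPI against GEN was 0.44 ± 0.16 (adjusted p = 0.558). Ccnd1, which codes for cyclin D1, differed by 0.30 ± 0.14 between SPI and GEN (adjusted p = 0.625), and the early response gene Ier3 by -0.42 ± 0.16 (adjusted p = 0.566). Ier3 averaged 7480 ± 1419 for SPI (SD, n = 4) and 9971 ± 1821 for GEN (SD, n = 3). Ccnd1 averaged 2448 ± 183 for SPI and 2002 ± 372 for GEN. Ier3 stood at -0.27 without GEN 3, at -0.32 without SPI 4 and at -0.35 with the beta-actin ratio as a covariate.

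The genes most like each tested member across the 10 arrays were found by Pearson's r of log2 signal over all other named probe sets that passed the filter, as a description. The likeness of a top pair is high partly because it was picked as the highest of all these probe sets, and the arrays share diets. For Areg they were Nifk (0.87) and U2surp (0.86), for Btc Klc2 (0.89) and Myog (0.84), and for Hbegf Ppp1r15a (0.93) and Atp6v0e1 (0.92). For Egfr they were Col14a1 (0.98), a fibril-associated collagen whose signal ran from 571 to 1398, and Acp6 (0.93). Those for Erbb3 were Rprd1a and Cadps2 (0.89 each). Between the 5 members themselves r ran from -0.38 (Areg and Egfr) to 0.64 (Btc and Egfr), so the members did not share 1 common pattern over the arrays.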

How the data were processed

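The authors deposited 1 table of MAS5 signal intensity on a linear scale, per the submitters' processing notes (no version in the sources used here). The 2% trimmed mean was equal on all arrays (about 500.1), so total RNA per array cannot be compared. Of 15923 probe sets, 57 controls were left out. Values under 1 (0.0637% of all) were set to 1 before log2. The lowest 40% by mean log2 signal were dropped, leaving 9520 to test. Symbols came from the platform annotation and were checked through Entrez identifiers (12748 of 12783 single-symbol probe sets found, 0 symbols changed). No presence calls were used, and the number of arrays limits the precision.

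Diets were compared with limma 3.58.1 in R 4.3.3 (lmFit, eBayes with intensity trend, all 10 arrays in 1 fit, Benjamini-Hochberg over the 9520 probe sets, threshold 0.05). Errors of differences are standard errors. The model was tested on simulated data, but the outcome is not given here and lends no support to the differences. Pathway and marker genes were taken from lists of known genes, by the brightest probe set of each gene. Genes named were all members, pathway genes at an unadjusted p under 0.05, and the 2 genes most like each tested member; the text says where a gene (Ereg, Adam17) was picked otherwise. The members and lists were chosen with earlier results of these data known. Alternatives covered the filter, the log offset, the scaling, covariates, the block and each array left out.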

Additional observations from a re-analysis of the deposited data

How the results depend on the processing

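All 241 alternative values of the 5 tested members stayed above an adjusted p of 0.05, and 221 kept their direction. Those that turned, other than by leaving out an array, were Btc with the replicate block (0.10 for SPI against CAS, 0.062 for SPI against GEN) and with the luminal list mean as a covariate (-0.0075 for GEN against CAS); Egfr with the replicate block (0.0022 for SPI against CAS) and with the luminal covariate (-0.021 for GEN against CAS, 0.00039 for SPI against GEN); and Erbb3 for SPI against CAS with arrays centred on their median (0.063), quantile normalization (0.073), the replicate block (0.020) and the luminal covariate (0.068). The cause was not tested. Leaving out an array gave ranges for SPI against CAS of -0.20 to 0.014 (Btc), -0.41 to 0.088 (Egfr), -0.15 to 0.13 (Erbb3) and -0.13 to 0.50 (Hbegf), for GEN against CAS of -0.12 to 0.15 (Btc), and for SPI against GEN of -0.25 to 0.031 (Btc). The 10 pathway differences kept their direction in all 166 alternative values. They had been picked by an unadjusted p under 0.05 on the same arrays, so a kept direction lends them no support. The unadjusted p in limma stayed under 0.05 in every alternative only for Dusp1 (GEN against CAS) and Eps15. It reached 0.659 for Pik3r1 and 0.183 for Ccnd1.

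Counts of probe sets at an adjusted p under 0.05, 0 in each comparison, became 2 for SPI against CAS with the luminal covariate, 2 for GEN against CAS with the lowest 60% left out and 2 for SPI against GEN with only the compared diets fitted; with an array left out they ran from 0 to 2, from 0 to 1 and from 0 to 1. Counts at an unadjusted p under 0.05 were 459, 561 and 757 as reported. They were 776, 884 and 1213 with no filter, since more probe sets were tested, and 298 (SPI against CAS) and 498 (SPI against GEN) with the lowest 60% left out. The luminal covariate gave 290 for SPI against GEN. With an array left out they ran from 296 (without SPI 3) to 726 (without CAS 2), from 354 (without GEN 5) to 752 (without CAS 1) and from 487 (without GEN 5) to 1091 (without SPI 5). With arrays centred on their median, 300 were higher and 174 lower for SPI against CAS (146 and 313 as reported), and 612 and 272 for SPI against GEN (352 and 405), so this balance of directions depended on the scaling. The replicate block gave 270 and 286 probe sets for SPI against CAS and SPI against GEN; 1 of 6 same-numbered pairs of arrays had deviations correlated over 0.1 (-0.18 to 0.16), and 0 of 9 arrays correlated best with a same-numbered one, so the numbers were not taken to pair the arrays.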
